A study of Rattus norvegicus with 14 samples.

Results

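The hepatic nuclear receptors examined here are the liver X receptor Nr1h3, the farnesoid X receptor Nr1h4, the constitutive androstane receptor Nr1i3, the pregnane X receptor Nr1i2, the hepatocyte nuclear factor Hnf4a, the peroxisome proliferator receptor Ppara, the thyroid hormone receptor Thrb, the oestrogen receptor Esr1 and the glucocorticoid receptor Nr3c1. A probe set was taken as a member when the symbol in the platform annotation was, or contained, one of these 9 names. The rule found 11 of the 8740 probe sets besides controls, each with 1 symbol, and they stood for 7 of the 9 genes, among 4736 genes on the array with a symbol of their own. Nr1i3 and Nr1i2 had no probe set under this rule and were not analysed here, except through genes that they are known to control.

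The livers came from male rats aged 74 days that had been fed for 53 days on a diet either deficient or sufficient in vitamin A, and no other treatment, strain or genotype is given in the labels. Each diet had 7 Affymetrix arrays, of which 4, numbered 1 to 4, were made from about 10 µg of total RNA and 3, numbered 1, 2 and 4, from about 2 µg. Arrays of 1 diet and 1 number were averaged, which gave 4 values per diet, and number 3 of each diet rests on a single array. Nothing in the labels ties an array to an animal, so "liver 1" means number 1 of a diet, and the p-values reflect the spread among these averages, part of which may be technical. All 9 measured hepatocyte markers passed the filter on dim probe sets. So did all 6 measured erythroid markers, so passing it does not by itself identify the tissue. Levels are on the scale of log2(scaled intensity + 16), on which an intensity of 0 becomes 4. Differences are deficient minus sufficient, with a standard error (SE), and p-values come from limma, a linear model fitted over all probe sets. An adjusted p under 0.05 counts as a call. An intensity depends on the probes as much as on the transcript, so no receptor's level is set against another's.

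Nuclear receptors are transcription factors whose activity is set by small lipophilic molecules. Nr1h3, Nr1h4, Nr1i2, Nr1i3, Ppara and Thrb bind DNA together with a retinoid X receptor (RXR), which can itself bind a derivative of vitamin A. Hnf4a binds DNA as a pair of identical subunits, and Esr1 and Nr3c1 are steroid receptors that do the same without RXR. In liver these proteins are known for their control of bile acid, fat, sugar and drug metabolism.

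Of the 10 receptor probe sets bright enough to be tested, 0 were called by diet, where 1.72% of all 5244 tested probe sets were called (90 of 5244 by limma at an adjusted p under 0.05, of which 39, or 0.744%, were higher and 51, or 0.973%, lower in deficient livers). With arrays scaled to 1 common median the split was 17 higher and 60 lower. At an unadjusted p under 0.05 the count was 3 of 10, namely Nr1h4 and 2 of the 3 Hnf4a probe sets, beside 14.5% of all tested probe sets. The differences were positive for 5 and negative for 5 of the 10, with a median of 0.01 beside 0.04 over all tested probe sets. The 95% interval of the difference lay wholly within a 2-fold change either way for 9 of the 10, the exception being Esr1. The eleventh probe set, one of the 3 for Nr3c1, was too dim to pass the filter at a mean level of 6.196. In whole liver, fewer cells of a type and less RNA per cell cannot be told apart.

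**Figure D1:**
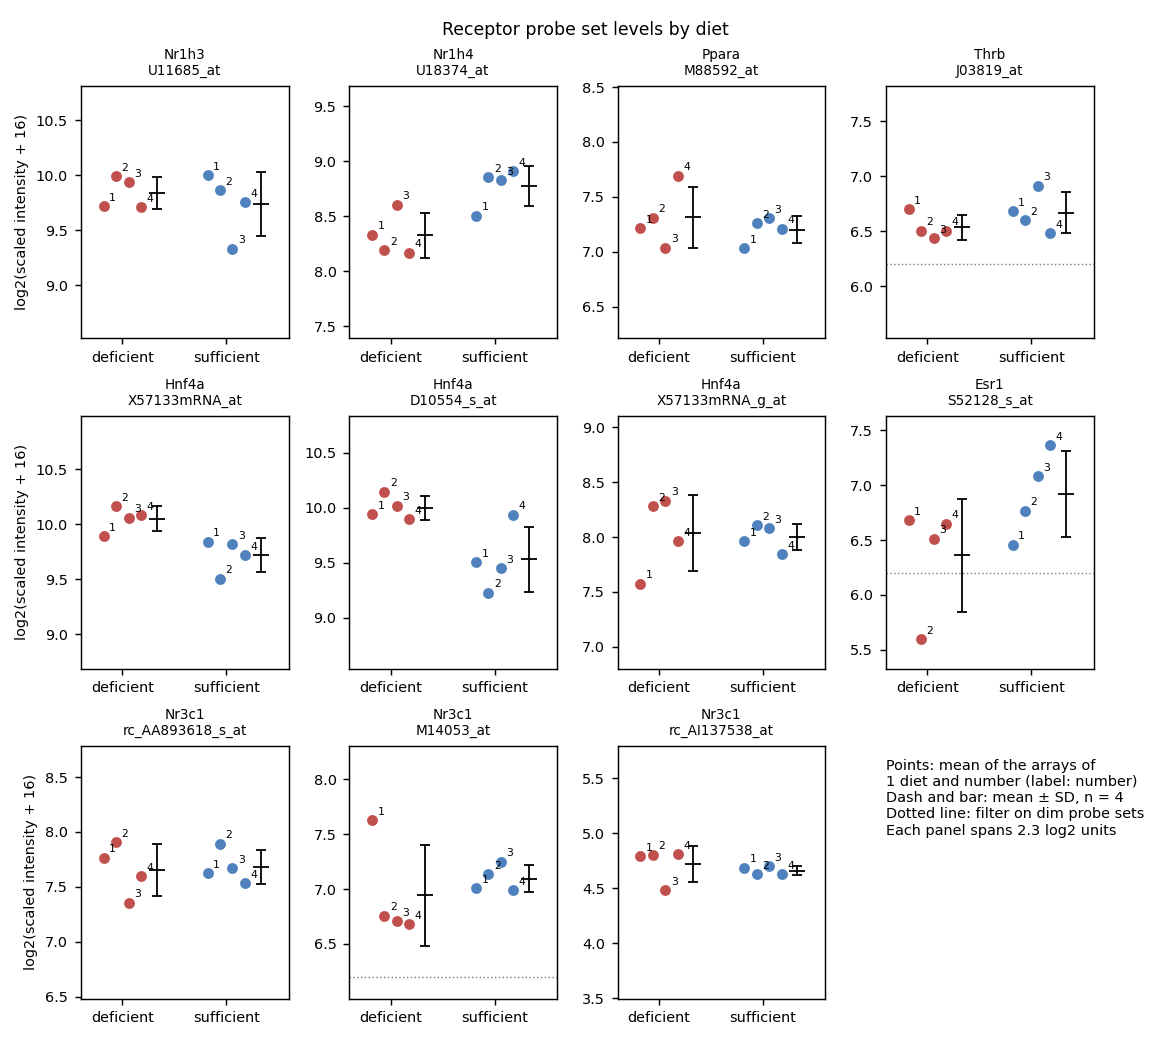
Level of each of the 11 receptor probe sets, as log2(scaled intensity + 16), in deficient livers (left) and sufficient livers (right); points are the 4 averaged values per diet with their numbers, and the dash and bar give mean ± SD. The 4 deficient points lie above all 4 sufficient points for Hnf4a X57133mRNA_at, and the groups overlap in the other panels.

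Hnf4a, which sustains the expression of hepatocyte genes such as those of clotting factors and apolipoproteins, is known to be transcribed from 2 start sites. The promoters of both are shown because Hnf4a had the most probe sets with a small p among the receptors. They are the windows from 250 bases before to 50 bases after the start, from RefSeq on build GRCr8, 5′ to 3′, at chr3:172605970-172606269 (plus strand) for the upstream start and chr3:172641586-172641885 (plus strand) for the downstream start. Capitals mark matches, on either strand, to 4 short motifs: the receptor half-sites AGGTCA and GGGTCA, the glucocorticoid half-site AGAACA and the HNF1 half-site GTTAAT.
Hnf4a upstream start: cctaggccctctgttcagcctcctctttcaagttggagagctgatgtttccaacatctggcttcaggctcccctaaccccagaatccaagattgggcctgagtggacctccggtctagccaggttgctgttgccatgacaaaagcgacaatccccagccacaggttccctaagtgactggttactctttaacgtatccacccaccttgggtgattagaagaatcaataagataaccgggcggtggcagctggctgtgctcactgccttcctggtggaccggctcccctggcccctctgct
Hnf4a downstream start: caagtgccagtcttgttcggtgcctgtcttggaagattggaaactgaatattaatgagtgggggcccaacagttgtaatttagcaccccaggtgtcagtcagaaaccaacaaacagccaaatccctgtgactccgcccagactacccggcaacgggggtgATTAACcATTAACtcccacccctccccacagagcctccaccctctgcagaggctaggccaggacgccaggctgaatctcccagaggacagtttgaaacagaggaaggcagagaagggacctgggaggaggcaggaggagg
The downstream window held 2 matches to the HNF1 half-site, both on the reverse strand, starting at -90 and -83 from the start site, and the upstream window held 0 matches to the 4 motifs. Of all 33469 promoter windows in the table, 7.5% held the HNF1 half-site, 16.2% AGGTCA, 13.8% GGGTCA and 20.7% AGAACA. A match is a description of the letters and not of a bound site, and the probe sets were not assigned to a start site.

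Hnf4a was measured by 3 probe sets, whose differences were not alike in size. By X57133mRNA_at, which stood for the gene, its level was 9.89, 10.17, 10.06 and 10.08 in deficient livers 1 to 4, against 9.84, 9.51, 9.82 and 9.72 in sufficient livers 1 to 4. All 4 deficient values lay above all 4 sufficient values, which was so for 5.84% of all tested probe sets, and the gap between the nearest values, deficient 1 and sufficient 1, was small. The means were 10.05 ± 0.11 in deficient and 9.72 ± 0.15 in sufficient livers (SD, n = 4 each), a difference of 0.33 (SE 0.12, 95% interval 0.06 to 0.59, limma adjusted p = 0.244).

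The name of D10554_s_at marks probes that may match more than 1 transcript. The same holds for S52128_s_at of Esr1, rc_AA893618_s_at of Nr3c1 and the probe sets of some target genes, such as Cyp2b2. By D10554_s_at the Hnf4a levels were 9.94, 10.15, 10.02 and 9.89 in deficient livers against 9.50, 9.23, 9.45 and 9.94 in sufficient livers. Sufficient number 4 lay among the deficient values and the other 3 sufficient values lay below all of them. The difference was 0.47 (SE 0.15, 95% interval 0.14 to 0.81, limma adjusted p = 0.170), or 1.39-fold. Without sufficient number 4 it was 0.61 and passed (limma adjusted p = 0.0459). That was the 1 call of a receptor probe set among 20 alternatives to the processing, and the adjusted p of D10554_s_at ranged up to 0.450 over the others.

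The third Hnf4a probe set, X57133mRNA_g_at, gave 7.57, 8.28, 8.33 and 7.96 in deficient livers against 7.96, 8.11, 8.08 and 7.85 in sufficient livers. The deficient values spanned the sufficient ones. The difference was 0.04 (SE 0.17, 95% interval -0.34 to 0.42, limma adjusted p = 0.962), and its sign turned when every array was set to a common median or quantile normalized. Whether the 3 Hnf4a probe sets differ from each other in their response was not tested.

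Nr1h4 encodes the bile acid sensor that restrains bile acid synthesis and promotes bile salt export. Its levels were 8.33, 8.19, 8.61 and 8.17 in deficient livers against 8.51, 8.86, 8.83 and 8.91 in sufficient livers, by the probe set U18374_at. The groups overlapped only through deficient number 3 and sufficient number 1. All 4 deficient values lay below all 4 sufficient values for 0 receptor probe sets, against 3.07% of those tested. The means were 8.33 ± 0.20 in deficient and 8.78 ± 0.18 in sufficient livers (SD, n = 4 each), a difference of -0.45 (SE 0.14, 95% interval -0.77 to -0.13, limma unadjusted p = 0.00957, adjusted p = 0.165), or 1.37-fold lower in deficient livers. It did not pass over all probe sets, and over the 20 alternatives the difference stayed negative, from -0.67 to -0.34, at adjusted p between 0.0656 and 0.398.

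Array by array, the scaled intensity of Nr1h4 was 309, 266 and 244 on deficient arrays 1, 2 and 4 from 2 µg and 304, 288, 372 and 303 on deficient arrays 1 to 4 from 10 µg. It was 364, 436 and 538 on the sufficient 2 µg arrays and 332, 460, 437 and 401 on the sufficient 10 µg arrays. One deficient array, number 3, lay above 2 of the 7 sufficient arrays, and the other 6 deficient arrays lay below all of them. Hnf4a by X57133mRNA_at had scaled intensities of 866 to 1185 on the 7 deficient arrays against 652 to 925 on the 7 sufficient arrays, where only the lowest deficient array, number 1 from 10 µg, overlapped.

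**Figure D2:**
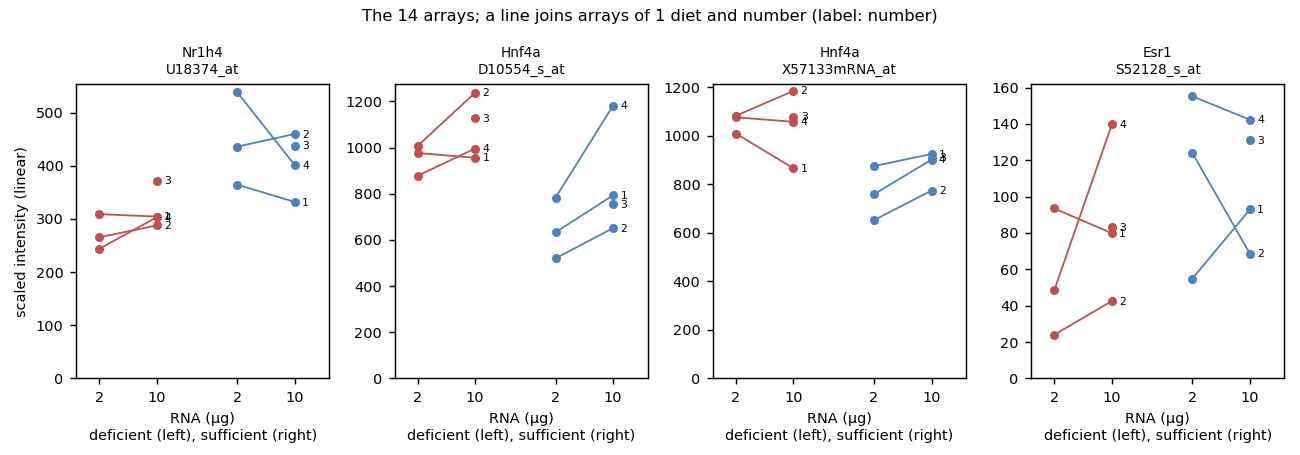
Scaled linear intensity on all 14 arrays for the 4 receptor probe sets with the smallest p, by RNA amount in µg, with deficient arrays on the left and sufficient arrays on the right of each panel; lines join arrays of 1 diet and number. Nr1h4 runs from 244 to 372 on deficient and from 332 to 538 on sufficient arrays, and Esr1 gave 48.6 at 2 µg and 139.7 at 10 µg for deficient number 4.

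Nr1h3 encodes an oxysterol sensor that drives cholesterol export and fatty acid synthesis. Its levels were 9.72, 9.99, 9.94 and 9.71 in deficient livers against 10.00, 9.87, 9.33 and 9.75 in sufficient livers, by U11685_at. The groups overlapped, and sufficient number 3 was the lowest of the 8 values. The difference was 0.10 (SE 0.15, 95% interval -0.24 to 0.44, limma adjusted p = 0.849). Without sufficient number 3 it was -0.03.

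Ppara encodes the fatty acid sensor that induces fatty acid oxidation in fasting. Its levels were 7.21, 7.31, 7.04 and 7.69 in deficient livers against 7.03, 7.26, 7.31 and 7.21 in sufficient livers, by M88592_at. Deficient number 4 was the highest value, and without it the difference of 0.11 (SE 0.17, 95% interval -0.26 to 0.48, limma adjusted p = 0.849) became -0.02.

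Thrb encodes the main hepatic receptor for thyroid hormone. Its levels, not far above the filter, were 6.70, 6.50, 6.43 and 6.50 in deficient livers against 6.68, 6.60, 6.91 and 6.48 in sufficient livers, by J03819_at. The groups overlapped nearly wholly, and the difference was -0.13 (SE 0.18, 95% interval -0.53 to 0.26, limma adjusted p = 0.821).

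Of the steroid receptors, Esr1 had the widest spread. Its levels were 6.68, 5.60, 6.51 and 6.65 in deficient livers against 6.46, 6.77, 7.08 and 7.36 in sufficient livers, by S52128_s_at. Deficient number 2 lay apart below the rest and under the filter level, and 3 of the 4 sufficient values lay above every deficient value. The difference was -0.56 (SE 0.29, 95% interval -1.18 to 0.07, limma adjusted p = 0.417), and without deficient number 2 it was -0.30 (limma adjusted p = 0.681). On the linear scale deficient number 4 gave 48.6 from 2 µg and 139.7 from 10 µg of RNA. The SD between arrays of the same diet and number was 0.50, against 0.51 in deficient and 0.39 in sufficient livers between numbers. The first is for single arrays and the others are for averaged values, so the measures are unlike. For Nr1h4 these SDs were 0.17 against 0.20 and 0.18. For Hnf4a by X57133mRNA_at they were 0.12 against 0.11 and 0.15. In 1 of the 10 tested probe sets, that of Thrb, the SD between arrays reached the larger SD between numbers (0.20 against 0.11 and 0.18).

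Nr3c1, the receptor for corticosterone in the rat, was carried by 3 probe sets. By rc_AA893618_s_at, which stood for the gene, the levels were 7.76, 7.91, 7.36 and 7.60 in deficient livers against 7.62, 7.89, 7.67 and 7.53 in sufficient livers. The groups overlapped, with a difference of -0.02 (SE 0.15, 95% interval -0.36 to 0.32, limma adjusted p = 0.971). By M14053_at the levels were 7.62, 6.76, 6.71 and 6.68 in deficient livers against 7.01, 7.14, 7.25 and 6.99 in sufficient livers.

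In that second Nr3c1 probe set deficient number 1 was above every sufficient value and the other 3 deficient values were below every sufficient value. The difference was -0.15 (SE 0.22, 95% interval -0.64 to 0.33, limma adjusted p = 0.836), and without deficient number 1 it was -0.38. The 10 µg array of deficient number 1, at a scaled intensity of 238, lay above all 7 sufficient arrays, whereas its 2 µg array, at 136.9, lay within their range of 86.3 to 145.2. The third, rc_AI137538_at, lay between 4.48 and 4.81 in deficient and between 4.63 and 4.70 in sufficient livers, close to the level of 4 that an intensity of 0 would give, and was not tested.

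**Figure D3:**
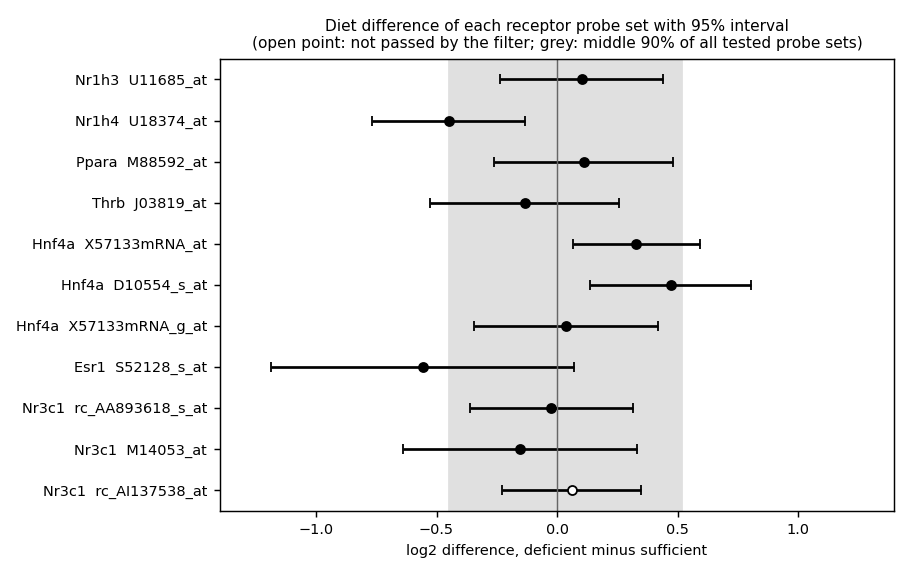
Difference in level, deficient minus sufficient on the log2 scale, for each receptor probe set with its 95% interval from limma; the open point did not pass the filter, and the grey band holds the middle 90% of all tested probe sets. The intervals of Nr1h4 and of 2 Hnf4a probe sets leave out 0, and that of Esr1, from -1.18 to 0.07, is the widest.

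The amount of RNA was the other labelled condition. Averaged over the diets, with the 14 arrays as separate samples, 0 of the 10 tested receptor probe sets were called between 2 µg and 10 µg in limma and 0 had an unadjusted p under 0.05, beside calls of 0% and an unadjusted p under 0.05 in 6.25% of the 5244 probe sets. The receptor difference with the smallest p was that of Hnf4a by D10554_s_at, at -0.27 (2 µg minus 10 µg, SE 0.13, limma adjusted p = 0.819). Arrays of the same diet and number deviated together, and with diet and number as a block 2 probe sets (0.0381%) passed over the whole table, Ptms at -1.36 and M93257_s_at, with no symbol listed, at 0.84, both named after their values were seen. In that fit 0 receptor probe sets were called and 1, Hnf4a by D10554_s_at, had an unadjusted p under 0.05, beside 11.2% of all probe sets. It was lower at 2 µg in 5 of 6 pairs of arrays, by -0.28 on average (SE 0.08, 95% interval -0.46 to -0.10, limma unadjusted p = 0.00643, adjusted p = 0.265).

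With the 14 arrays as separate samples, which leaves out the pairing, 0 of 10 interaction terms between diet and RNA amount were called and 0 had an unadjusted p under 0.05, beside calls of 0% and an unadjusted p under 0.05 in 1.83% of all tested probe sets in limma. The Nr1h4 levels averaged 8.17 ± 0.16 on 3 deficient 2 µg arrays, against 8.84 ± 0.27 on 3 sufficient 2 µg arrays. They averaged 8.37 ± 0.16 on 4 deficient 10 µg arrays, against 8.72 ± 0.20 on 4 sufficient 10 µg arrays. The interaction, the diet difference at 2 µg minus that at 10 µg, was -0.32 (SE 0.24, limma adjusted p = 0.9995). With diet and number as a block 0 of 10 interaction terms were called and 0 had an unadjusted p under 0.05 in limma, beside 0% and 3.76% of all tested probe sets, and Nr1h4 was at -0.28 (SE 0.21). The receptor interaction with the smallest p in that fit was that of Nr3c1 by M14053_at, at -0.74 (SE 0.34, 95% interval -1.49 to 0.01, limma unadjusted p = 0.0533, adjusted p = 0.997).

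Known target genes of the receptors were described by list, on 1 probe set per gene. Over all 3135 genes tested, 1.88% were called, 26 (0.829%) higher and 33 (1.05%) lower in deficient livers, while 1860 differences were positive and the median difference was 0.05. At an unadjusted p under 0.05 the share over all these genes was 14.7% (460 of 3135). Among the lists with calls it was met by 3 of 9 Nr1h3, 4 of 14 Nr1h4, 5 of 21 Hnf4a, 10 of 27 Ppara, 8 of 13 thyroid hormone receptor and 9 of 22 glucocorticoid receptor targets. The lists overlap and were written with earlier results of these data known, so their counts are descriptions.

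Among 9 tested targets of Nr1h3, 1 fell, Scd, the desaturase that makes monounsaturated fatty acids, to 7.93 ± 0.70 in deficient livers against 10.87 ± 0.24 in sufficient livers (SD, n = 4 each; limma adjusted p = 0.000276), and 8 did not pass. The list median was -0.17, with 4 positive and 5 negative differences. Its other members for fatty acid synthesis, Elovl5, Acaca, Fasn and Srebf1, had differences of -0.48, -0.55, -0.40 and -0.17. The positive differences were 0.36 for Lpl, 0.19 for Apoe, 0.10 for Apoc1 and 0.17 for Cyp7a1, the rate-limiting enzyme of bile acid synthesis.

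Of 14 tested Nr1h4 targets, 1 rose, the canalicular phospholipid transporter Abcb4 (difference 0.80, SE 0.17, limma adjusted p = 0.0385), and 13 did not pass. The list median was 0.22, and 13 of the 14 differences were positive. The list mixes genes of bile salt export, which the receptor promotes, with bile acid synthesis, which it restrains, such as Cyp7a1 at 0.17. The count and median therefore give no direction of receptor activity. The bile salt export pump Abcb11, at 0.21, the corepressor Nr0b2, at 0.26, and the bile acid conjugating enzyme Baat, at 0.33, were among those that did not pass. The Abcb4 call was kept in 8 of 20 alternatives, and the highest adjusted p was 0.214.

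The list of Hnf4a targets had 21 tested genes, of which Pklr, the liver pyruvate kinase, fell (difference -1.34, SE 0.23, limma adjusted p = 0.0147) and 20 did not pass. The Pklr call was lost in the 2 µg arrays alone, as were the calls of Plin2 and Tdo2. Its median was 0.11 and 17 of 21 differences were positive. Ttr and Apob, a plasma carrier and an apolipoprotein, had differences of 0.03 and 0.00, and Apoa1 had 0.63 (adjusted p = 0.157). The 9 hepatocyte markers, some of which are also on this list, all had positive differences, with a median of 0.19 and 0 called in limma, 3 of them at an unadjusted p under 0.05. Their summed intensity was 204839 to 235890 in deficient and 168187 to 216811 in sufficient livers. The part of hepatocyte RNA in the Hnf4a difference was not tested.

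Of 27 tested Ppara targets, 2 fell: Acaa1b, a peroxisomal thiolase, at a difference of -1.16 (SE 0.15, limma adjusted p = 0.00187), and Plin2, a coat protein of lipid droplets, at -1.01 (SE 0.18, limma adjusted p = 0.0163). Plin2 had a level of 11.00 ± 0.17 in deficient against 12.02 ± 0.40 in sufficient livers (SD, n = 4 each). The other 25 did not pass, among them Slc27a2 at 0.38 (limma adjusted p = 0.0514), the carnitine transferase Cpt1a at 0.70 and the pyruvate dehydrogenase kinase Pdk4 at -1.10. The list median was -0.01 with 12 positive and 15 negative differences. Over the 20 alternatives 0 to 1 Ppara targets were called higher and 1 to 2 lower.

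Of 13 tested targets of thyroid hormone receptors, 2 fell, Scd and Pklr, which other lists share, and 11 did not pass. Over the 20 alternatives 0 to 2 of these 13 were called higher and 1 to 3 lower. The median of this list was -0.40, with 5 positive and 8 negative differences, and it gives no direction of receptor activity. Its differences ran from -2.93 to 1.86, the last for Serpina7, the thyroxine-binding globulin (limma adjusted p = 0.0876). Klf9 at 0.62 and Cpt1a at 0.70 were also positive and did not pass. The deiodinase Dio1 had a difference of -0.70 (limma adjusted p = 0.0563).

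Of 22 tested glucocorticoid receptor targets, 3 rose: the tryptophan dioxygenase Tdo2 at 0.91 (SE 0.14), the serine dehydratase Sds at 2.09 (SE 0.34) and the arginase Arg1 at 0.63 (SE 0.13), at limma adjusted p of 0.0071, 0.0101 and 0.0311. The other 19 did not pass, with Tat at 0.17 and Pck1 at -0.62, and the list median was 0.21. The Arg1 call was kept in 10 of 20 alternatives, with an adjusted p of up to 0.287. Of 4 tested oestrogen-responsive genes 0 passed in limma, and 0 had an unadjusted p under 0.05.

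For the 2 receptors with no probe set, the targets gave 0 calls. Of 11 tested Nr1i3 targets 0 passed in limma and 3 had an unadjusted p under 0.05, beside the 14.7% of all genes: Ephx1, the microsomal epoxide hydrolase, at -0.51 (SE 0.11, adjusted p = 0.0514), Cyp2b2, a phenobarbital-inducible P450, at -2.05 (SE 0.60, adjusted p = 0.134), and Alas1, the housekeeping enzyme that begins heme synthesis, at -1.01 (SE 0.36, adjusted p = 0.225). The level of Cyp2b2 was 10.80 ± 1.52 in deficient and 12.85 ± 0.54 in sufficient livers (SD, n = 4 each), so the spread among deficient livers was wide. Up to 2 of the 11 were called lower under the alternatives. Of 9 tested Nr1i2 targets 0 passed in limma, with up to 1 called lower under the alternatives, and 2 had an unadjusted p under 0.05, Cyp2b2 again and Cyp3a9 at -1.29, while the P450s Cyp3a2 and Cyp3a23-3a1 had differences of -0.07 and 0.22.

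**Figure D4:**
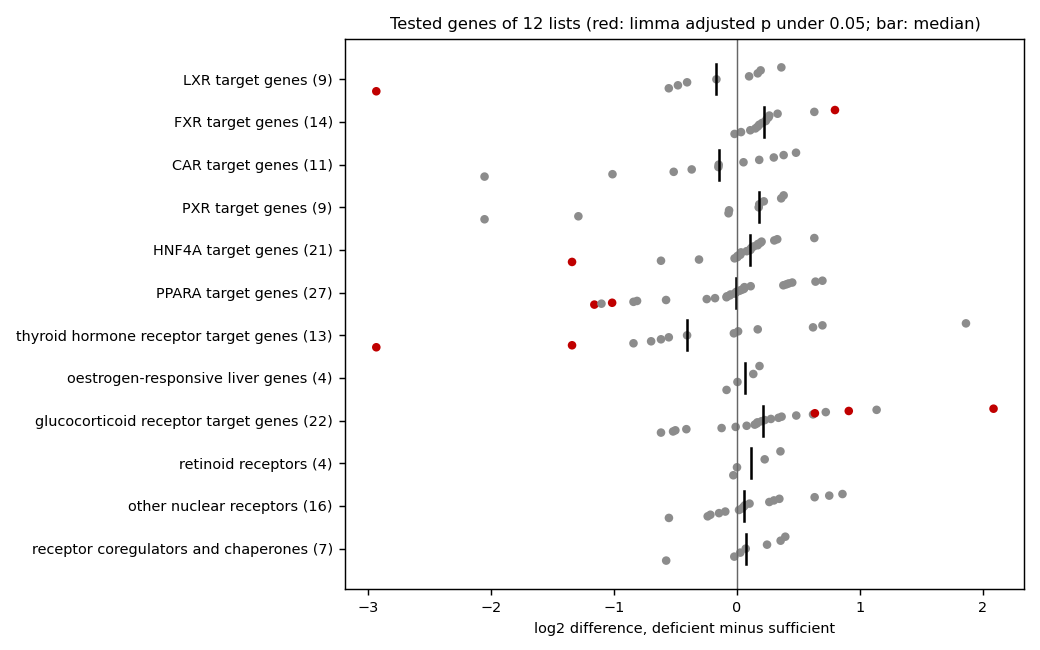
Differences of the tested genes of each of 12 lists, deficient minus sufficient on the log2 scale, with genes called by limma in red, a black bar at each list's median and the number of tested genes in brackets. Called genes lie on the negative side for Nr1h3 (LXR, 1 gene), Hnf4a (1), Ppara (2) and thyroid hormone receptor targets (2, Scd and Pklr again). They lie on the positive side for Nr1h4 (FXR, 1) and glucocorticoid receptor targets (3). These calls do not give the direction of a list, since 17 of the 21 Hnf4a target differences are positive.

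The lists of retinoid receptors, other nuclear receptors, and coregulators and chaperones held 0 calls as well. Of 4 tested retinoid receptors, which bind vitamin A derivatives, 0 passed in limma and 1, Rxrb, had an unadjusted p under 0.05. Rxra, the main hepatic RXR, had a level of 8.80 ± 0.14 in deficient and 8.80 ± 0.08 in sufficient livers (SD, n = 4 each; difference 0.00, SE 0.12, limma adjusted p = 0.997), and Rxrb had a difference of 0.35 (SE 0.14, limma adjusted p = 0.277). Of 16 other nuclear receptors 0 passed in limma and 3 had an unadjusted p under 0.05, a share near the 14.7% of all genes. They were the clock repressors Nr1d1 and Nr1d2 at 0.86 and 0.75 and the orphan receptor Nr4a2 at -0.55. Under the alternatives up to 1 of the 16 was called higher. Of 7 tested coregulators and chaperones 0 passed in limma and 3 had an unadjusted p under 0.05, Hdac2, a histone deacetylase, at -0.57, Pias3 at 0.36 and Ncoa4 at 0.39.

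The genes most alike in pattern to each receptor were taken by Pearson's r over the 8 averaged values, among 3134 candidate genes, and are given without a p because they are the highest of many. For Nr1h4 they were Igf1, the growth factor, at r = 0.94, Shank2 at 0.93 and Map2k5 at 0.92. For Hnf4a by X57133mRNA_at they were Gpx3 at 0.95, Ctsl at 0.93 and Msn at 0.92, of which the cathepsin Ctsl was called higher in deficient livers (difference 0.56, limma adjusted p = 0.0183). For Nr1h3 they were Serping1, the inhibitor of complement C1, at 0.97, Arfgap2 at 0.93 and Rbl2 at 0.93.

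For Ppara the 3 most alike genes were Tango2, Cox8a and Pdyn, at r = 0.93, 0.90 and 0.88, and for Esr1 they were Cacnb1, Suox and Hsd17b6, at 0.89, 0.89 and 0.89. For Nr3c1 by rc_AA893618_s_at they were Agxt2, Pon1 and Dpy19l1, at 0.95, 0.94 and 0.94. For Thrb they were Glra1, Pygm and Rhd, at 0.98, 0.97 and 0.96. The 8 values share an array type, a scaling and the diet contrast. With the diet means taken out, r ranged from 0.75 for Hnf4a and Msn to 0.99 for Thrb and Glra1.

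Over all 3135 genes tested, 1.88% were called and 14.7% had an unadjusted p under 0.05 in limma. All 4 deficient values lay above all 4 sufficient values for 5.84% of single tested probe sets, and below them for 3.07%. Among the cell type markers, 4 of 6 erythroid genes were called lower and their summed intensity was 3981 to 6782 in deficient against 12797 to 15884 in sufficient livers. Of 8 tested macrophage markers 1 was called higher, Lgals3 at 0.77 (limma adjusted p = 0.0492), close to the threshold. The summed intensity of the 9 measured was 9563 to 12683 in deficient against 7650 to 8437 in sufficient livers. Ctss, the brightest of them, weighs most in that sum and was not called, at 0.65 (limma adjusted p = 0.0706). The sum over 5 measured cholangiocyte markers, cells that also express Nr1h4, was 448 to 630 in deficient against 400 to 435 in sufficient livers. In limma 0 of 4 tested markers were called and 2 had an unadjusted p under 0.05. Those 4 had diet means of 6.39 to 7.69, not far above the filter, and Ggt1 did not pass it. Stellate, endothelial and lymphocyte sums overlapped between the diets. Of 8 tested stellate markers 1 was called higher, Vim at 0.80 (limma adjusted p = 0.0343). The stellate differences were positive for 3 and negative for 5, with a median of -0.11, and Col1a1 was at -0.85 (limma adjusted p = 0.120). Of 4 endothelial markers 1 was called lower, Lyve1 at -1.04 (limma adjusted p = 0.0071). Of 4 lymphocyte markers 0 were called, with 1 at an unadjusted p under 0.05. The part of these cells in the receptor differences was not tested. As a measure of RNA quality, the 3′ probe set of GAPDH exceeded its 5′ probe set by 0.794 on the log2 scale in deficient and 0.732 in sufficient livers (exact two-sided permutation test, p = 0.743). For beta-actin it was 0.530 in deficient and 0.625 in sufficient livers (exact p = 0.457), where the smallest p that 4 against 4 allows is 0.0286.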

How the data were processed

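Liver RNA was measured on 14 single-channel Affymetrix arrays. Per the labels, a column kit gave total RNA, from which standard Affymetrix targets were prepared. The authors deposited 1 linear intensity per probe set and array. The trimmed means, with 2% off each end, lay between 1001.9 and 1002.1, so arrays had been scaled before deposit. The program was not given in the sources used here. The medians without controls were 175.1 to 231. The number of arrays limits the precision.

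The 59 control probe sets were left out, arrays were scaled to a trimmed mean of 500, 16 was added before log2, and probe sets under the 40th percentile of mean level (6.196) were left out, leaving 5244 of 8740. The mean shift between RNA amounts, over 6 pairs of arrays, was split between the amounts and removed, and arrays of 1 diet and number were averaged. The model was limma 3.58.1 under R 4.3.3 (lmFit, then eBayes with trend) on these 8 values, two-sided, with Benjamini-Hochberg adjustment over all tested probe sets. The amount and interaction fits used the 14 arrays as separate samples. Arrays of 1 diet and number correlated in their deviations at 0.202 to 0.351 in all 6 pairs. The pairing comes from the shared number in the titles. Arrays of different numbers within a diet were not correlated for comparison, so these values do not by themselves show the pairing. The diet fit and the amount and interaction fits on separate arrays were first tested on simulated data. The fits with a block were not.

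For each gene, its highest probe set by mean was used. The members and lists were chosen with earlier results of these data known. The naming rule took all receptor probe sets, up to 4 called genes per list with the smallest p, and the 3 genes most alike to each receptor; other list members were named after their values were seen. Of 9 receptor genes, 8 had a promoter in the RefSeq table.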

Additional observations from a re-analysis of the deposited data

Results flagged for a closer look

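In 38 groups of 4 averaged values, those of the 11 receptor probe sets and of 8 called target genes in each diet, 6 held a value whose gap to its nearest neighbour took up more than 0.829 of the group's range, Dixon's 95% critical value for 4. Chance gives about 1 in 20 groups. The Esr1 level of deficient number 2 was 5.60 and the nearest value 6.51. Nr3c1 by M14053_at was at 7.62 in deficient number 1, with the nearest value at 6.76. Nr3c1 by rc_AI137538_at was at 4.48 in deficient number 3, with the nearest value at 4.79, near the floor of the scale. Among the target genes, Acaa1b was at 10.6 in sufficient number 1, Plin2 at 11.3 in deficient number 4 and Arg1 at 12.4 in deficient number 4.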

How the results depend on the processing

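Diet results were recomputed under 20 alternatives, and 19 for Ppara, Thrb, Esr1 and Nr3c1 M14053_at, which a stricter filter left out. The differences of Nr1h4, Esr1, Hnf4a X57133mRNA_at and Hnf4a D10554_s_at kept their sign in all of them. The number of probe sets called by diet, 90, became 33 with the 2 µg arrays alone and 250 with all 14 arrays and a random block for diet and number, and ran from 52 (without deficient number 4) to 96 leaving out 1 number, with 58 without sufficient number 3. Receptor probe sets called ran from 0 to 1, the 1 being Hnf4a D10554_s_at without sufficient number 4. Probe sets called by amount were 2 with diet and number as a replicate block and 0 to 2 leaving out 1 number, with 2 without sufficient number 1.

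Signs turned for receptors whose intervals span 0, and the cause was not tested. Hnf4a X57133mRNA_g_at was at -0.024 with a common median, -0.026 with quantile normalization and -0.101 on 2 µg arrays. On 2 µg arrays Nr1h3 was at -0.045, Thrb at 0.029 and Nr3c1 rc_AA893618_s_at at 0.056, and the last was at 0.0020 with the random block. Nr3c1 M14053_at was at 0.12 on 10 µg arrays. Leaving out 1 number gave -0.060 to 0.192 for Hnf4a X57133mRNA_g_at, -0.034 to 0.189 for Nr1h3, -0.016 to 0.203 for Ppara and -0.106 to 0.077 for Nr3c1 rc_AA893618_s_at.

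Numbers are shared across diets, but same-numbered values correlated at -0.0763 to 0.0672 and 1 of 4 correlated best with its own number. With number as a replicate block 77 probe sets and 0 receptors were called. Glucocorticoid receptor targets called higher ran from 1 to 6 (3 as reported), and Nr1h4 targets called higher from 0 to 2 (1 as reported); the Nr1h4 count stayed within 1.5 times in 7 of 20 alternatives. Of 160 values of the 8 called target genes 135 stayed called and 0 turned sign.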
